A study of Mus musculus with 2 samples.

Results

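The genes described here are the axon guidance genes of 3 ligand and receptor systems: the ephrins and Eph receptors, the Slits and Robo receptors, and the netrins with their receptors. They were taken by symbol: every Epha, Ephb, Efna, Efnb, Slit and Robo gene with a number, the netrins Ntn1, Ntn4, Ntng1 and Ntng2, and the receptors Dcc, Neo1 and Unc5a to Unc5d. This gave 39 of 28001 features. They are 9 EphA and 5 EphB receptors, 5 ephrin-A and 3 ephrin-B ligands, 3 Slits, 4 Robos, 4 netrins and 6 netrin receptors. Ntn3, which the rule also names, was not matched and is not analysed here. The cells were from C57BL/6J mice at postnatal day 0, in 2 single-cell libraries: Gmnc-/- animals and their wild-type littermates. Each library was a pool of 4 animals, the Gmnc-/- ones from 2 litters, dissected to keep the hippocampus plus dorsal and lateral cortex from either hemisphere. Gmnc is needed for cells to become multiciliated. Which part of the gene was deleted is not given in the sources used here.

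Guidance cues steer growing axons and migrating neurons by attraction or repulsion. Ephrins are bound to the membrane, ephrin-A by a lipid anchor and ephrin-B by a transmembrane segment, and signal to Eph receptor tyrosine kinases on neighbouring cells. Slits are secreted and repel cells through Robo receptors. Netrin-1 attracts through Dcc and repels through Unc5 receptors, while the netrin-G proteins Ntng1 and Ntng2 are membrane-anchored and bind synaptic adhesion partners in place of Dcc.

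The wild-type library gave 10592 cells and the knockout library 20852 after filters, at median depths of 6022 and 4477 UMIs (unique molecules). Doublet calls had removed 3.16% of cells from the wild-type library but 20.3% from the other. The rates expected from the barcode numbers were 10.4% and 22.1%, so the calls fell further short of expectation in wild-type. The libraries shared 85 cell barcodes. The median mitochondrial share was 3.07% in wild-type and 1.18% in knockout cells. Levels are CPM, the UMIs of a gene in a group of cells scaled to the same total in each group. With 1 library per genotype there is no replicate check and no test: each comparison sets 1 pool beside the other, and the 95% intervals in parentheses cover counting error only. A gene is counted as higher or lower where knockout and wild-type levels differed by at least 1.5-fold after adding 5 CPM to each, and log2 ratios have the same 5 CPM. Cells fell into 34 clusters, made without the guidance genes, and classes took the suffix "-like" from marker lists. Of the listed markers, 5 of 8 were found in at least 5% of striatal neuron-like cells and 7 of 7 in oligodendrocyte lineage-like cells. There were 7 classes with at least 200 cells in both libraries, and 3 clusters stayed unnamed, holding 6.63% of wild-type and 5.07% of knockout cells.

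Neighbouring genes of 1 family were read in different cells. Efna1, Efna3 and Efna4, which encode ephrin-A ligands, lie within 66.3 kb on the minus strand of chromosome 3. Efna1 was highest in endothelial-like cells, with 54.8 CPM in wild-type and 64.2 CPM in knockout cells, and was at 0.616 and 1.29 CPM in excitatory neuron-like cells. Efna3 went the other way, with 13.1 and 10.3 CPM in excitatory neuron-like and 0.737 and 0.434 CPM in endothelial-like cells. Efna4 was read in several classes, with 21.7 and 25.04 CPM in intermediate progenitor-like and 14.8 and 16.3 CPM in astroglia-like cells. Robo4, the endothelial member of the Robo family, was at 82.5 and 100.2 CPM in endothelial-like cells and at or under 0.496 CPM in all 7 large classes. Robo3, 0.553 kb away and on the opposite strand, was at 0.324 and 0.461 CPM over all cells.

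The start regions of these genes are shown because their levels split by cell class within a short stretch of the genome. Each is the 250 bases before the transcription start that RefSeq gives on GRCm38.p6, and capitals mark GGAAG, the core of ETS factor sites, on either strand. They lie at chr3:89280952-89281201, chr3:89322940-89323189 and chr3:89338029-89338278 on the minus strand and chr9:37401722-37401971 on the plus strand.
Efna1: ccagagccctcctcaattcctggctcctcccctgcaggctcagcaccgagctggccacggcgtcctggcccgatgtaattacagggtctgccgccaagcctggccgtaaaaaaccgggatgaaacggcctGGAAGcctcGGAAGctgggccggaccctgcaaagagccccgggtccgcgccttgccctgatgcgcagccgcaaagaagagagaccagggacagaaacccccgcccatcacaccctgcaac
Efna3: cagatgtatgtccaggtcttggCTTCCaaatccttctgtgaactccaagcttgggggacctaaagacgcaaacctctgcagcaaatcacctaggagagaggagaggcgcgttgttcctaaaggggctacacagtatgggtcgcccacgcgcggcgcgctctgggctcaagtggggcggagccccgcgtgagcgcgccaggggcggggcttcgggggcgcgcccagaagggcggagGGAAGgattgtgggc
Efna4: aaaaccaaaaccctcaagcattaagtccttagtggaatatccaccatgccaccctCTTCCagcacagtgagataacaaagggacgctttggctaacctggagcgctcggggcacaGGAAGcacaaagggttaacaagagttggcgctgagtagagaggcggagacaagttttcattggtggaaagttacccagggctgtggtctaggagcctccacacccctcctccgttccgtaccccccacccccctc
Robo4: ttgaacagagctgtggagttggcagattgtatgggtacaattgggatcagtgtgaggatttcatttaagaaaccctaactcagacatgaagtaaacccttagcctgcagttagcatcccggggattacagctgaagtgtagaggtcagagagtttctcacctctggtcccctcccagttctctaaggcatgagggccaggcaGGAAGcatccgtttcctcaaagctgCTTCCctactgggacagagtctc
All 4 held 2 matches. Of the 32851 such windows 64.1% held at least 1, and the share with 2 or more was not computed. The Robo4 window held 2 CpG sites and those of Efna1, Efna3 and Efna4 held 16, 19 and 7, beside a median of 6 over all windows. A match is a description of these letters. Windows were found for 34 of the 39 genes.

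**Figure D1:**
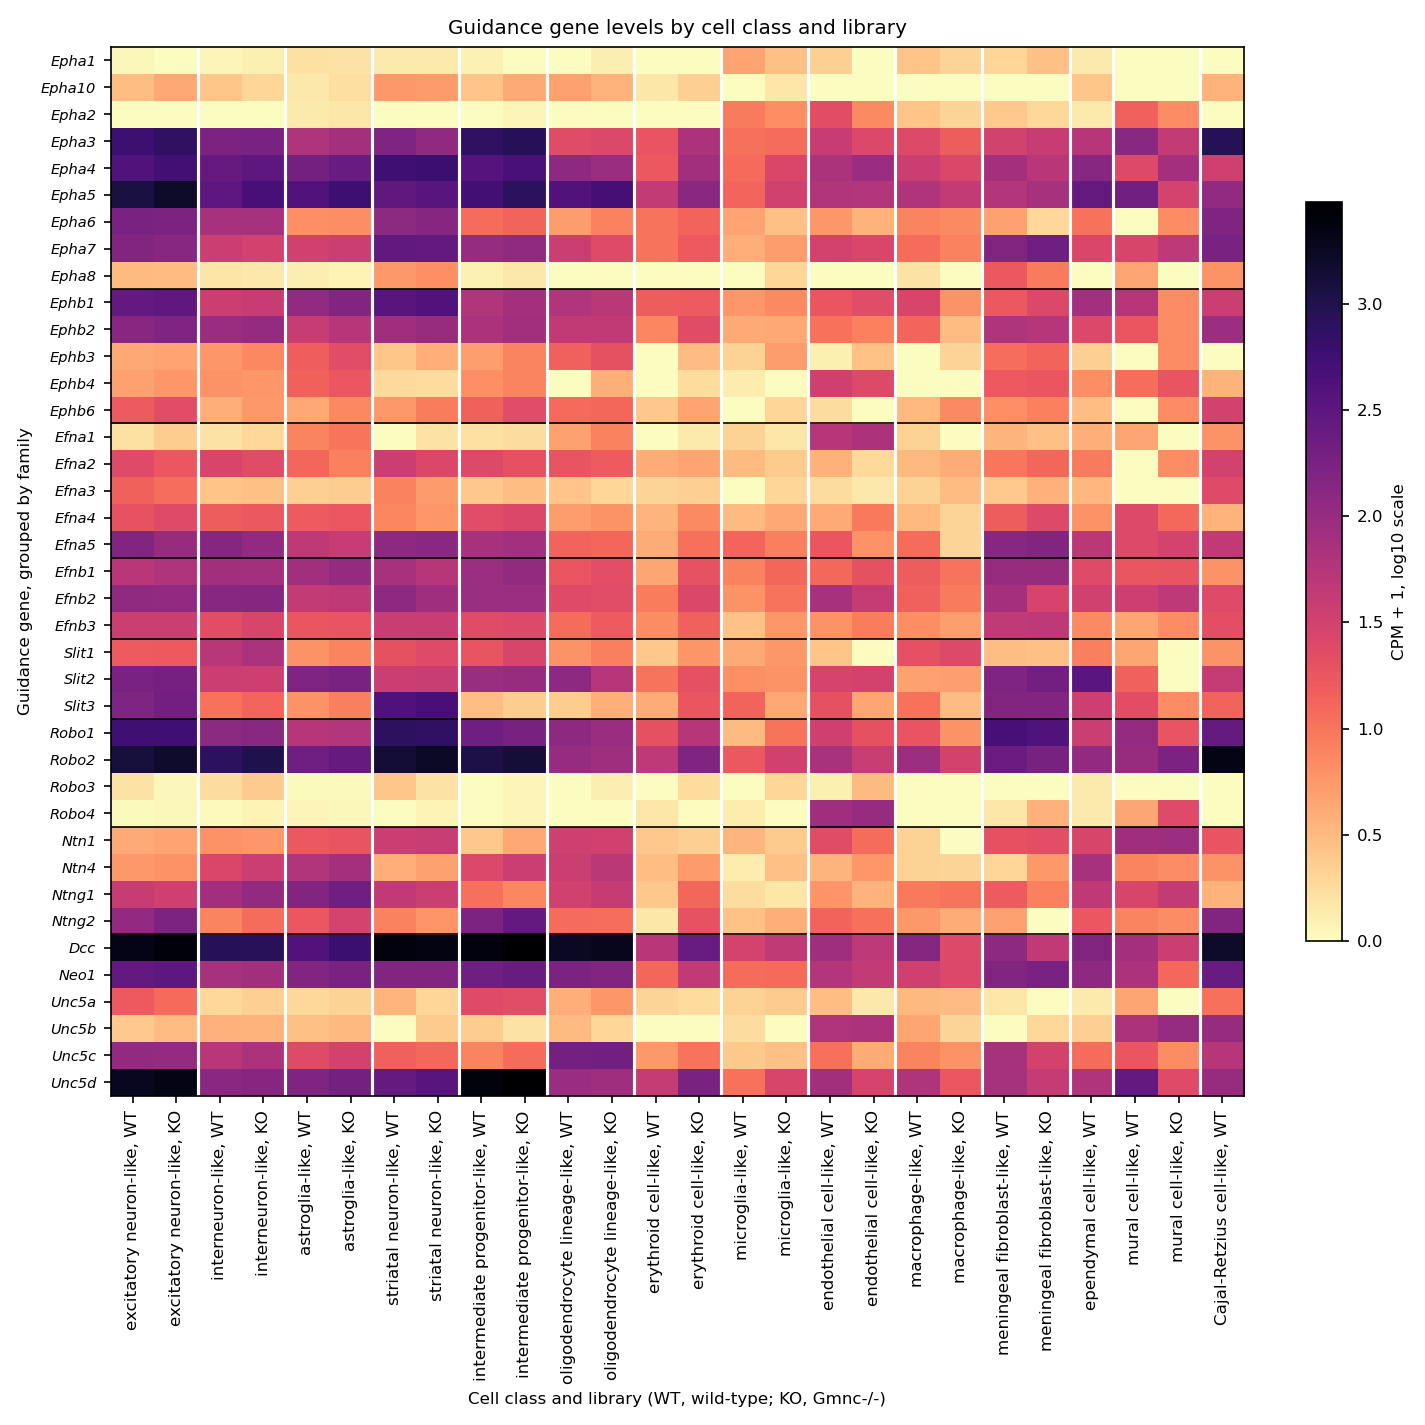
Levels of the 39 guidance genes (rows, grouped by family) in each cell class of each library (columns), as log10 of CPM + 1; columns with under 30 cells are left out. Dcc and Robo2 are dark across the neuronal columns, Unc5d is dark in excitatory neuron-like and intermediate progenitor-like but not in interneuron-like cells, Robo4 and Efna1 stand out in endothelial-like cells, and the paired columns of the neural classes look alike.

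Among the ligands, the Slits had different highest clusters, with some shared. Slit1 was highest in an interneuron-like cluster led by Adarb2, at 202 CPM in wild-type and 219 CPM in knockout cells. Slit2 was at 341 and 485 CPM in a cluster of apical progenitor-like cells led by Rmst, Lef1 and Wnt8b, genes of the medial cortical wall, and at 316 and 329 CPM in the largest upper-layer neuron-like cluster. Slit3 was at 412 and 484 CPM in striatal neuron-like cells, against 9.79 and 12.3 CPM in interneuron-like cells. The larger striatal neuron-like cluster had 544 and 618 CPM of it and the smaller one 39.0 and 35.8 CPM. Slit3 was also high in excitatory neuron-like clusters, at 497 and 735 CPM in the one with Zfp385b and 457 and 431 CPM in the hippocampal one with Prox1. A meningeal fibroblast-like cluster with Col1a1 held both Slit3, at 422 and 310 CPM, and Slit2, at 404 and 383 CPM. Across 31 clusters with at least 30 cells in both libraries, the levels of Slit1 and Slit3 had a correlation of -0.17 in wild-type and -0.07 in knockout cells, on a log2 scale. The clusters share 1 library each time, so this is a description only.

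The ephrin ligands and netrins were spread over other classes. Efnb2, a transmembrane ephrin, was highest in the Sp8-positive interneuron-like cluster, at 230 and 211 CPM. Efnb1 was at 117 and 157 CPM in the larger astrocyte-like cluster. Ntn4, a secreted netrin of basement membranes, was at 59.2 and 74.8 CPM in astroglia-like cells and at 4.50 and 5.23 CPM in excitatory neuron-like cells. Ntn1, the classical netrin, was at 11.6 and 10.8 CPM over all cells and reached 82.3 and 87.2 CPM in mural-like cells, of which there were 45 and 53.

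Receptors of the netrin and Slit systems were among the genes that mark neuronal classes. Unc5d, a repulsive netrin receptor of multipolar cells, was at 2437 CPM in wild-type and 2950 CPM in knockout intermediate progenitor-like cells. In interneuron-like cells it was at 124 and 136 CPM, and it was the leading gene of the upper-layer neuron-like cluster of 1080 and 2328 cells although it had no part in the clustering. Dcc was at 4705 and 4951 CPM in a striatal neuron-like cluster led by Isl1 and Ebf1. It was at 1776 and 1936 CPM in oligodendrocyte lineage-like cells, where Unc5c was at 197 and 210 CPM. Robo2 was at 2545 and 2650 CPM in the smaller of the upper-layer neuron-like clusters. It was about as high in the Sp8-positive interneuron-like cluster, at 2411 and 2497 CPM. Robo1 was highest in striatal neuron-like cells, at 783 and 763 CPM.

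Eph receptors were split by layer and region. Epha3 was at 1131 and 1291 CPM in the smaller upper-layer neuron-like cluster. Epha4 was highest in a cluster of excitatory neuron-like cells with Zfp385b and Kcnq3, at 1017 and 1270 CPM. Epha7 and Ephb1 were both highest in the deep-layer cluster led by Hs3st4, with 491 and 466 CPM for Epha7 and 883 and 831 CPM for Ephb1. Epha6 was at 688 CPM in both libraries in the interneuron-like cluster with Foxp2 and Tshz1. Of the 23 genes at 20 CPM or more over all cells or 50 CPM in a large class, 18 had the same highest cluster in both libraries. The correlation of their cluster levels between the libraries ran from 0.889 for Unc5d to 0.975 for Ntn4, with a median of 0.933. Ranked by the lower of the libraries' correlations, the most alike pair was Epha3 and Unc5d, with 0.846 in wild-type and 0.851 in knockout clusters. Efnb2 and Robo2 had 0.878 and 0.831, and Epha4 and Ephb2 0.864 and 0.826.

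Some classes held guidance genes in wild-type cells with no knockout counterpart. The 39 wild-type Cajal-Retzius-like cells, the Reelin-secreting neurons of the cortical surface, had 2164 CPM of Robo2, 1600 CPM of Dcc and 898 CPM of Epha3. They also had 98.6 CPM of Unc5b, which in the large classes was at or under 2.62 CPM. Only 1 knockout cell fell into this class, so no level is compared. The 130 ependymal-like cells, which carry motile cilia, were all wild-type and held 328 CPM of Slit2. They gave 9.07% of all wild-type Slit2 molecules, and Slit2 over all cells was at 113 CPM in wild-type and 120 CPM in knockout cells.

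The remaining members were lower or more even. Neo1, a Dcc-related receptor, was read in all 31 clusters and was highest in the cluster with Zfp385b, at 438 CPM in wild-type and 558 CPM in knockout cells. Unc5c, another repulsive netrin receptor, reached 294 and 435 CPM in the excitatory neuron-like cluster with Nrgn. Efnb3, a transmembrane ephrin, was highest in the interneuron-like cluster with Foxp2, at 52.4 and 64.1 CPM. Ephb3 was at 6.44 CPM in wild-type and 9.58 CPM in knockout cells over all cells, and Unc5a at 5.43 and 5.30 CPM. Epha1, Epha8 and Epha10 were each under 2 CPM in both libraries.

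Over all cells 2 of the 39 genes were higher in the knockout library by the fold, Ntng2 and Epha5, where 2.5% of 20030 genes were higher. None was lower by it, where 4.18% of all genes were. Ntng2 (chr2:29194541-29253005, minus strand, mm10) was at 40.9 CPM in wild-type and 74.3 CPM in knockout cells, a ratio of 1.81 (1.74 to 1.89). Epha5 (chr5:84054761-84417382, minus strand), an EphA receptor, was at 468 and 774 CPM, a ratio of 1.65 (1.63 to 1.67). Just outside the fold lay Robo2, at 581 and 872 CPM with a log2 ratio of 0.58, and Slit3, at 55.6 and 82.4 CPM with 0.53. The median log2 ratio of the 39 genes was 0.26, beside 0.00 over all genes, and 29 of 39 were above 0. At 20 CPM or more it was 0.41 for 23 guidance genes, all above 0 but Efna5, and 0.13 for 8169 genes, of which 63.7% were above 0.

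The mix of cells also differed. Excitatory neuron-like cells made up 23.8% of the wild-type library and 28.0% of the knockout one, and endothelial-like cells 2.19% and 0.834%. In a calculation added after seeing the data, the knockout clusters were weighted to their wild-type share of UMIs. Only the 31 clusters with at least 30 cells in both libraries entered it, so wild-type levels shifted slightly too, to 589 CPM for Robo2. The ratio of Robo2 was then 1.17 in place of 1.501. That of Unc5d was 1.10 in place of 1.42. Epha5 stood at 1.40 and Ntng2 at 1.48, so no gene passed the fold, and the median of the 39 log2 ratios was 0.16. The ratios of Robo4, Unc5b and Efna1 went from below to above 1. Those of Robo1, Efnb2 and Efna3 went the other way, Robo1 from 1.20 to 0.980, Efnb2 from 1.11 to 0.9397 and Efna3 from 1.004 to 0.957. Robo4 was at 4.32 and 2.35 CPM over all cells, a ratio of 0.545 (0.461 to 0.643), and at 1.23 after weighting. The ratio of Unc5b was 0.641 (0.556 to 0.739) over all cells and 1.10 after weighting. Epha2, an Eph receptor of endothelial and epithelial cells, was at 1.62 and 0.405 CPM, and its ratio of 0.25 (0.173 to 0.355) was 0.444 after weighting.

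**Figure D2:**
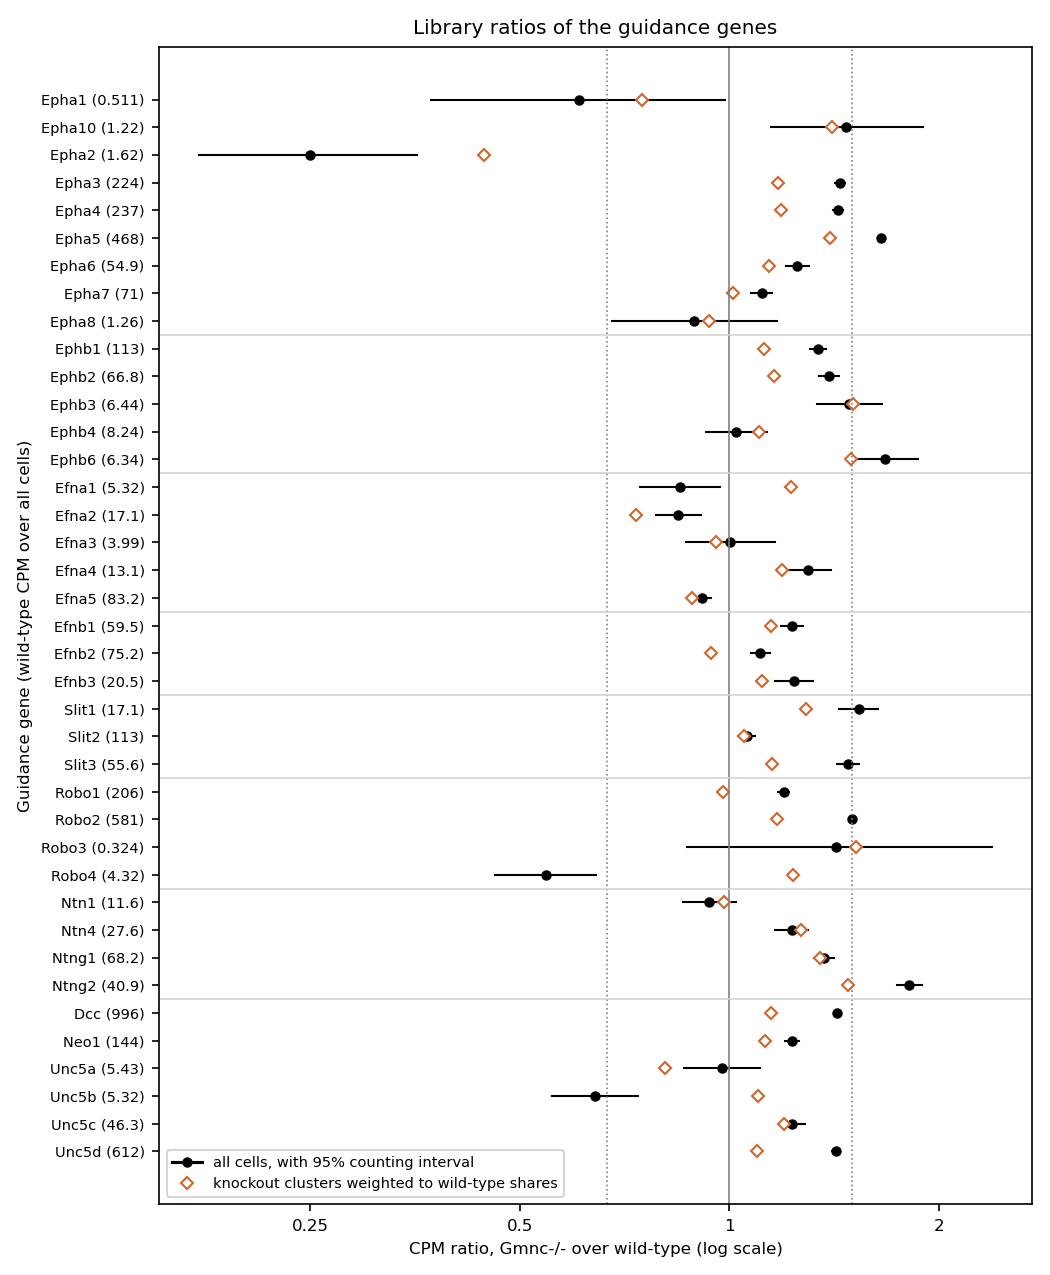
Ratio of knockout to wild-type CPM for each guidance gene on a log axis, with wild-type CPM in brackets. Black points with bars are all cells with 95% counting intervals. Open diamonds have the knockout clusters weighted to wild-type shares over 31 clusters, and dotted lines mark a fold of 1.5. Most diamonds lie closer to 1 than the points, and several cross it, among them Robo4.

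Gene length moved with the ratio. The guidance genes had a median length of 106.5 kb and all genes 20.9 kb. Over all cells the median log2 ratio of all genes was -0.02 for genes under 10 kb and 0.29 for those of 500 kb or more, and the 6 guidance genes of that length had 0.51. Among genes at 20 CPM or more and at least 100 kb long, the median was 0.27 over 1698 genes and 0.42 over 19 guidance genes. Ntng2, at 58.5 kb, is not among the long ones. Malat1, a nuclear RNA, was at 14780 CPM in wild-type and 18103 CPM in knockout cells. The part of length, of nuclear RNA and of the mitochondrial share in these ratios was not tested.

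**Figure D3:**
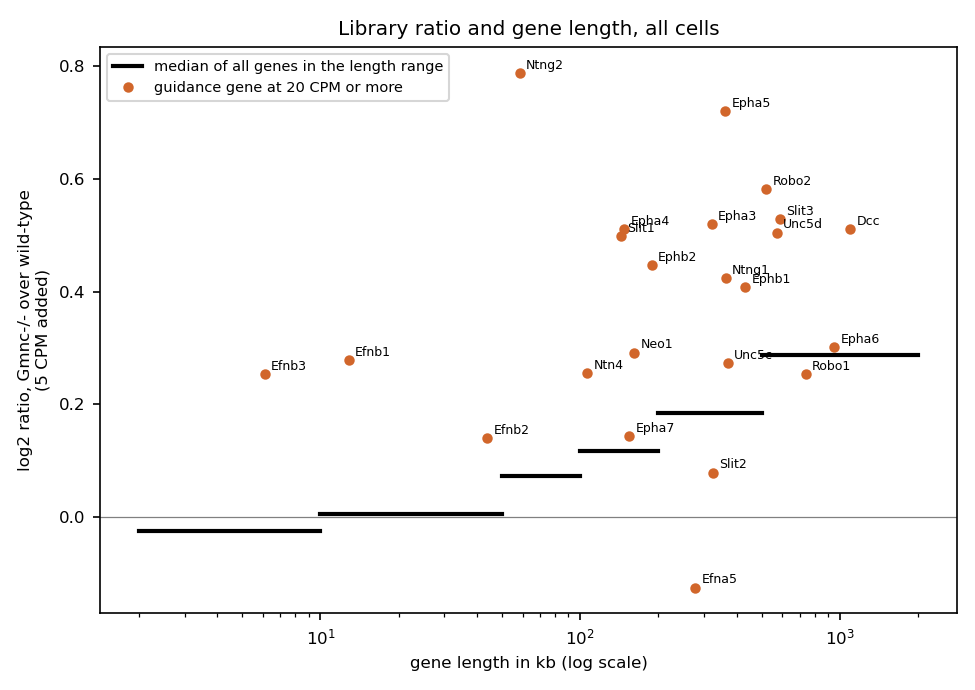
Log2 ratio over all cells, knockout over wild-type with 5 CPM added, against gene length in kb on a log axis. Points are the 23 guidance genes at 20 CPM or more and black lines the median of all genes in 6 length ranges; all points but Efna5 lie above 0, and Ntng2 and Epha5 lie highest.

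Within classes, few guidance genes passed the fold. In excitatory neuron-like cells none of 36 was higher (1.83% of all genes were) and none lower (1.95%). In interneuron-like cells 1 of 36 was higher (1.83%) and none lower (2.3%). In astroglia-like cells 1 of 37 was higher (2.83%) and none lower (2.07%), and in intermediate progenitor-like cells 1 of 33 was higher (5.18%) and none lower (2.97%). In striatal neuron-like cells none of 32 was higher (3.36%) or lower (2.82%), and in oligodendrocyte lineage-like cells 1 of 31 was lower (3.9%) and none higher (4.73%). The lower gene was Slit2, which did not pass the fold with doublets kept, in male-pattern cells, at other resolutions or when clustered with the guidance genes. Every one of these counts is near the share over all genes. The class medians were 0.11, 0.10, 0.23, 0.24, 0.02 and 0.08 in this order, beside 0.03, 0.04, 0.07, 0.12, 0.04 and 0.05 for all genes. For the 7 guidance genes of 200 to 500 kb they were 0.10, 0.15, 0.35, 0.24, 0.08 and 0.09. All genes of that length had 0.10, 0.16, 0.26, 0.27, 0.10 and 0.08. The 6 guidance genes of 500 kb or more had 0.24, 0.11, 0.28, 0.21, 0.20 and 0.02. All genes that long had 0.11, 0.17, 0.28, 0.30, 0.12 and 0.07. The part of length in the class medians was not tested.

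Epha5 was the gene of interneuron-like cells. It was at 303 CPM in wild-type and 491 CPM in knockout cells, a ratio of 1.62 (1.56 to 1.68). The knockout level was the higher one in each of the 6 interneuron-like clusters. Epha5 was at 198 and 224 CPM in the Foxp2 cluster, where the ratio's interval held 1 (0.931 to 1.37). In the Sp8-positive interneuron-like cluster it was at 98.8 and 167 CPM. The highest cluster had 1782 and 2514 CPM, a ratio of 1.41 (1.32 to 1.504). The cluster led by Adarb2 came next, at 1493 and 1855 CPM, a ratio of 1.24 (1.16 to 1.33). The highest cluster made up 8.49% of the class in wild-type and 8.13% in knockout cells, and the Adarb2 cluster 8.08% and 10.997%. The part of the class's make-up in its Epha5 ratio was not tested. Astroglia-like cells had 388 and 566 CPM of Epha5, with a ratio of 1.46 (1.42 to 1.498). Its ratio was 1.48 (1.41 to 1.55) in intermediate progenitor-like cells, from 538 and 795 CPM, and 1.38 (1.35 to 1.40) in excitatory neuron-like cells, from 1171 and 1613 CPM. After thinning each cell to 2000 UMIs, 26.8% of wild-type and 33.5% of knockout interneuron-like cells had an Epha5 molecule, where 42.0% and 47.9% did before thinning. In erythroid-like cells, taken as background, the thinned shares were 5.74% and 14.2%. Median depths were 4315 and 3339 UMIs there, beside 3824 and 3782 in interneuron-like cells. The background shares thus differed by more than the interneuron-like ones, and the part of that background in the Epha5 difference was not tested. Over 31 clusters Epha5 was higher in the knockout in 26.

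Ntng2 followed the glutamatergic lineage, apart from the deep-layer cluster, where it was at 10.7 and 6.69 CPM from 4 and 8 molecules. In intermediate progenitor-like cells it was at 165 CPM in wild-type and 279 CPM in knockout cells, a ratio of 1.69 (1.56 to 1.84). Markers of the class differed too in its larger cluster, which held 90.5% of its wild-type and 92.2% of its knockout cells. Btg2 was at 229 and 109 CPM there, Insm1 at 121 and 64.9 CPM and Eomes at 551 and 744 CPM. The part of that difference in the Ntng2 ratio was not tested. After thinning, 26.1% and 37.2% of intermediate progenitor-like cells had an Ntng2 molecule, where 60.4% and 64.7% did before. The background differed too: in erythroid-like cells Ntng2 was at 0.496 and 18.03 CPM, from 1 and 45 molecules, and the thinned shares were 0% of 244 cells and 2.55% of 431. The part of that background in the Ntng2 difference was not tested. In excitatory neuron-like cells it was at 109 and 164 CPM, with a ratio of 1.502 (1.42 to 1.59) that was just short of the fold once 5 CPM were added. The gene of astroglia-like cells past the fold was also Ntng2, at 16.4 and 28.6 CPM. That difference lay mainly in the medial cluster with Wnt8b, at 46.7 and 117 CPM, and was 9.01 and 12.8 CPM in the astrocyte-like cluster with Aqp4.

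The medial cluster had the highest Dcc ratio among the astroglia-like clusters. Dcc was at 408 CPM in wild-type and 608 CPM in knockout astroglia-like cells, a ratio of 1.49 (1.45 to 1.53). In the medial cluster, 257 wild-type and 509 knockout cells, it was at 1749 and 3229 CPM. In the larger astrocyte-like cluster it was at 201 and 195 CPM, and in the cycling cluster at 264 and 268 CPM. In the astrocyte-like cluster with Aqp4 it was at 127 and 175 CPM, a ratio of 1.38 (1.25 to 1.52). Other markers differed in the medial cluster too: Ttr, the main transcript of choroid plexus, was at 15199 and 5369 CPM, and Zbtb20, a factor of hippocampal progenitors and neurons, at 3134 and 4970 CPM. The part of that mix in the Dcc and Ntng2 values was not tested. Ntng1 was at 146 and 215 CPM in astroglia-like cells and higher in the knockout in each of the 4 clusters. Its ratio was lowest in the cluster with Aqp4, at 1.35 (1.24 to 1.47). It was highest in the medial cluster too, at 1.67 (1.40 to 2.01).

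**Figure D4:**
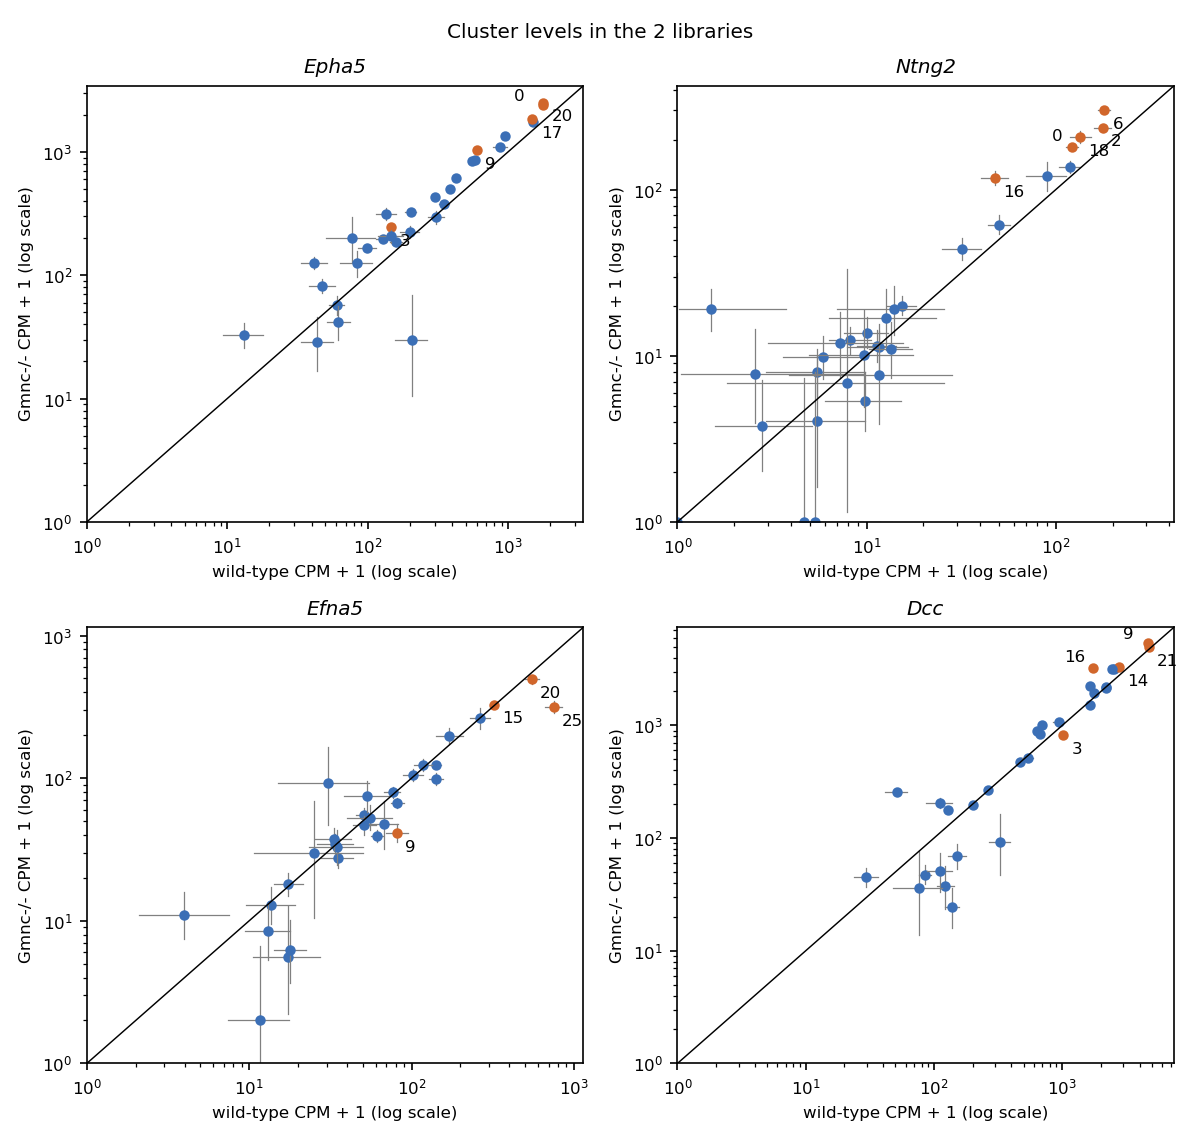
Level of 4 guidance genes in each of the 31 clusters with at least 30 cells in both libraries, as CPM + 1 on log axes, wild-type on the x axis and knockout on the y axis; grey bars are 95% counting intervals, the line is equality and orange clusters are numbered. Cluster 16 (medial progenitor-like) lies above the line for Ntng2 and Dcc, and cluster 25 (deep-layer neuron-like) below it for Efna5.

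In the 6 neural classes the lowest log2 ratios were those of Slit2 in oligodendrocyte lineage-like cells, at -1.03, and of Efna5 in excitatory neuron-like cells, at -0.57. Efna5, an ephrin-A ligand, was at 144 CPM in wild-type and 96.0 CPM in knockout excitatory neuron-like cells, a ratio of 0.665 (0.629 to 0.703). More than any other cluster of the class, the one with Nrgn held the gene's molecules, 1306 of 2345 in wild-type cells. Its Efna5 level was 321 and 327 CPM, a ratio of 1.02 (0.942 to 1.10), and the cluster made up 13.1% of the class in wild-type but 7.80% in knockout cells. In the cluster with Zfp385b Efna5 was at 80.1 and 40.2 CPM, a ratio of 0.501 (0.402 to 0.625). The part of the class's make-up in its ratio was not tested. In the deep-layer cluster it was at 749 and 314 CPM, from 72 and 204 cells, and 10 wild-type cells held 64.1% of its 281 molecules there. In that cluster the deep-layer markers Tle4, at 1648 and 1593 CPM, and Sox5, at 2723 and 2816 CPM, were closer between the libraries. Others of the same list were less alike, with Foxp2 at 1219 and 834 CPM, Fezf2 at 80.0 and 128 CPM and Ldb2 at 752 and 913 CPM. The part of that cluster's make-up in its Efna5 values was not tested. Slit2 was at 117 CPM in wild-type and 54.6 CPM in knockout oligodendrocyte lineage-like cells, a ratio of 0.467 (0.384 to 0.567). Its log2 ratio of -1.03 was -0.27 with doublets kept, -0.15 in male-pattern cells, -0.29 and -0.18 at resolutions of 0.5 and 2 and -0.19 when clustered with the guidance genes. There 1 wild-type cell held 73 of 276 molecules. Before thinning, 26.0% of wild-type and 19.3% of knockout cells of this class had a Slit2 molecule, at median depths of 6278.5 and 5009 UMIs. The shares of erythroid-like cells before thinning were 1.87% and 5.88%. In striatal neuron-like cells Epha3 was at 161 and 114 CPM, and 1 wild-type cell held 95 of the 331 molecules in the larger cluster.

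Cells of each sex come from different animals of a pool, so they were also compared alone. Female-pattern cells, with Xist and no Y-linked molecule, numbered 7150 and 9524. Male-pattern cells, with a Y-linked molecule and no Xist, numbered 1594 and 5360. Cells of neither pattern were left out. Both patterns come from the same library of each genotype, so they are not replicates. Over all cells the ratio of Epha5 was 1.71 (1.68 to 1.74) in female-pattern and 1.38 (1.35 to 1.42) in male-pattern cells. That of Ntng2 was 2.02 (1.92 to 2.13) and 1.40 (1.28 to 1.52). In intermediate progenitor-like cells Ntng2 was higher in the knockout in both, 159 and 276 CPM in female-pattern and 190 and 291 CPM in male-pattern cells. Efna5 in excitatory neuron-like cells had a ratio of 0.571 (0.532 to 0.613) in female-pattern and 1.07 (0.927 to 1.24) in male-pattern cells. Slit2 in oligodendrocyte lineage-like cells had 0.425 (0.329 to 0.545) and 0.894 (0.525 to 1.57). The intervals of both patterns lay above 1 for Epha5, Ntng2, Ntng1 and Dcc in the classes named, and the male-pattern intervals of Efna5 and Slit2 held 1.

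**Figure D5:**
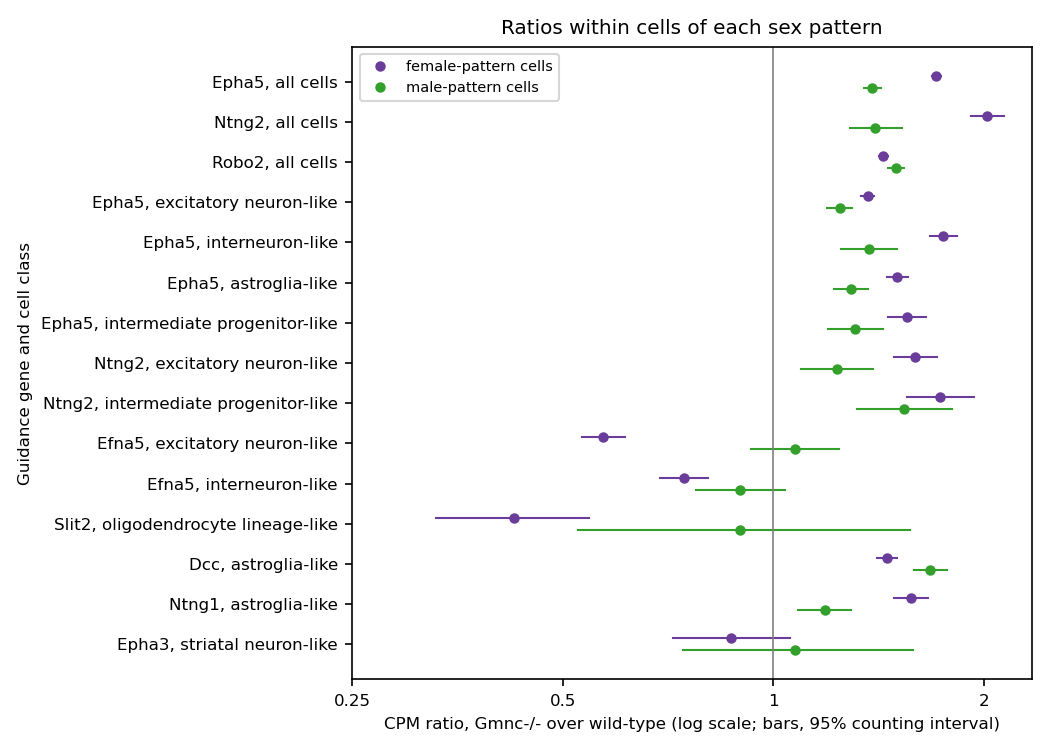
Ratio of knockout to wild-type CPM on a log axis for guidance genes over all cells and in classes, in female-pattern (purple) and male-pattern (green) cells, with 95% counting intervals. Epha5, Ntng2, Ntng1, Dcc and Robo2 lie above 1 in both, whereas Efna5 in excitatory neuron-like cells is at 0.571 and 1.07.

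Direction over clusters was read for genes with at least 20 molecules in at least 15 clusters. Ntn4 was higher in the knockout in 19 of 19 clusters and Ephb6, an Eph receptor without kinase activity, in 16 of 16. Efna2, an ephrin-A ligand, was higher in 1 of 23, with 22.9 CPM in wild-type and 16.5 CPM in knockout excitatory neuron-like cells. Of the 27 guidance genes read this way, 7.41% were higher in at least 90% of their clusters, where 16.6% of 11002 genes were. Efna2 alone, 3.70% of the 27, was lower in at least 90% of its clusters, where 7.14% of all genes were. The median gene was higher in 64.3% of its clusters among the 27 and in 66.7% among all.

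In the vascular classes, of 232 and 174 endothelial-like cells, endothelial members were at levels that the sum over all cells does not show. Robo4 was at 82.5 and 100.2 CPM, a ratio of 1.21 (1.02 to 1.44). Unc5b, an endothelial netrin receptor, was at 59.7 and 64.7 CPM, and Ephb4, the venous receptor of ephrin-B2, at 32.9 and 23.4 CPM. Efnb2, the arterial ephrin, was at 71.5 and 39.9 CPM, a ratio of 0.559 (0.437 to 0.709). Epha2 was at 21.1 and 6.08 CPM, from 86 and 14 molecules, a ratio of 0.288 (0.151 to 0.509). In these cells 10 of 30 guidance genes were lower by the fold, where 4.31% of all genes were, and 1 was higher (4.95%). They include neuronal genes such as Unc5d, at 80.3 and 28.2 CPM, and Robo2, at 68.0 and 37.3 CPM.

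Erythroid-like cells, not known to make neuronal guidance receptors, held their molecules as well. Dcc was at 50.1 CPM in wild-type and 253 CPM in knockout erythroid-like cells, Robo2 at 46.1 and 158 CPM and Unc5d at 40.2 and 171 CPM. After thinning, 6.56% and 14.2% of these cells had a Dcc molecule, beside 79.0% and 79.3% of excitatory neuron-like cells. By the fold 19 of 26 guidance genes were higher there, where 36.2% of all genes were, and none was lower (4.55%). The direction was the opposite in macrophage-like cells, with 137 and 23.4 CPM of Dcc, 9 of 23 guidance genes lower (10.8% of all genes) and 1 higher (8.67%). In microglia-like cells 6 of 25 were higher (12.6%) and 1 lower (3.86%), in meningeal fibroblast-like cells none of 26 higher (9.37%) and 6 lower (8.38%), and in mural-like cells 3 of 15 higher (25.3%) and 7 lower (15.3%). Free RNA and doublets that were not called cannot be told apart in these values, and their part in the other classes was not tested.

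Of the partners and effectors of these receptors, 6 of 50 listed genes were higher by the fold over all cells (2.5% of all genes were) and 1 was lower (4.18%). Their median log2 ratio was 0.29, beside 0.00 over all 20030 genes. The highest were Draxin, a secreted Dcc ligand, at 48.9 CPM in wild-type and 92.9 CPM in knockout cells, and Flrt1, of a family that binds Unc5 and Robo receptors, at 20.3 and 41.0 CPM. Dscaml1, an adhesion protein of the Dscam family, followed at 185 and 310 CPM and Pak1, a kinase downstream of Rac and Cdc42, at 67.7 and 114 CPM. The lowest were Sdc4, a heparan sulfate proteoglycan, at 23.4 and 13.3 CPM and Cdc42, the small GTPase, at 347 and 268 CPM. Ablim1, an actin-binding protein, was at 59.9 and 51.7 CPM, and Nck2, an adaptor of Eph and Robo signalling, at 67.4 and 64.6 CPM.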

How the data were processed

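The deposited files hold UMI counts per gene and barcode, made by the authors with Cell Ranger 7.1.0, per the submitters' processing notes; whether intronic reads were counted is not given in the sources used here. Gene positions are those of GENCODE on mm10. Barcodes needed at least 1000 UMIs and a mitochondrial share under 10%, and doublets called by Scrublet in scanpy 1.11.5 per library were removed. Both libraries were clustered together (leidenalg 0.10.2, 2000 variable genes, 30 principal components, 15 neighbours, resolution 1) without the guidance and partner genes. Names came from marker lists, with score minimums set after seeing the data, so they may differ from the study's. Counts were summed per library and class. Intervals are exact (Poisson, Clopper-Pearson or conditional) at 95%. Genes with 10 or more UMIs over both libraries entered the counts. The members and lists were chosen with earlier results of these data known. Every member could be named, in full those at 20 CPM over all cells or 50 CPM in a class of 200 cells, and partners by the 4 highest and 4 lowest log2 ratios at 20 CPM or more. The calculation was tested on simulated counts. SciPy 1.17.1 and NumPy 2.4.6 were used. Alternatives were other filters, doublets kept, each sex pattern alone, median-of-ratios scaling, averaging per-cell CPM, adding 1 CPM, a fold of 2, resolutions of 0.5 and 2 and clustering with the guidance genes.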

Additional observations from a re-analysis of the deposited data

How the results depend on the processing

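The median log2 ratio of the 39 guidance genes over all cells was 0.142 as a mean over cells and 0.159 with the knockout clusters weighted to wild-type shares, the last added after seeing the data. The number higher by the fold was 4 with at least 2000 UMIs and under 5% mitochondrial counts, 4 with a prior of 1 CPM, 1 in male-pattern cells, 1 as a mean over cells, 0 at a fold of 2 and 0 after weighting, and the number lower was 2 with a prior of 1 CPM. For the 50 partner genes the median was 0.230 in female-pattern cells, 0.175 as a mean over cells and 0.188 after weighting. Of them 2 were higher as a mean over cells and 2 after weighting, and 0 were lower in female-pattern cells, as a mean over cells and after weighting. Median-of-ratios scaling took the median of all genes in intermediate progenitor-like cells from 0.118 to 0.0136, and that of the guidance genes from 0.242 to 0.0897. Of 207 values of single genes over all cells under the alternatives, 201 kept their sign, as did 900 of 1001 within classes. For Slit2 in oligodendrocyte lineage-like cells the log2 ratio was negative under every alternative run, and -0.27 with doublets kept, -0.15 in male-pattern cells, -0.29 and -0.18 at resolutions of 0.5 and 2 and -0.19 when clustered with the guidance genes; the cause was not tested. No paired analysis was possible because each genotype has 1 library. Depth limits the classes with few cells, and the members with few molecules.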
